A study of Mus musculus with 2 samples.

Results

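MHC class II genes encode the molecules with which antigen-presenting cells show peptides to CD4+ T cells. The 7 genes described here were chosen by name: the chain genes H2-Aa, H2-Ab1 and H2-Eb1, the invariant chain gene Cd74, the peptide exchange genes H2-DMa and H2-DMb1, and the transactivator gene Ciita. They are 7 of the 31053 genes in the count table, and all 7 had counts in both libraries. An A or E molecule pairs an alpha with a beta chain, the invariant chain holds the groove until the molecule reaches the endosome, and the H2-DM heterodimer then helps antigenic peptides to replace the remaining fragment. Ciita is recruited to the promoters of the whole set and is required for their constitutive and interferon-gamma induced transcription. In the liver, Kupffer cells (the resident macrophages), dendritic cells and B cells are the usual carriers of these molecules, while hepatocytes and red cell precursors are expected to lack them.

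The data were droplet 3′ single-cell RNA counts from perfused livers of C57BL/6 mice, in which unique molecular identifiers (UMIs) stand for captured mRNA molecules. The control library came from LaptTA;WT, which carries the tTA transactivator under the liver-active LAP promoter without the YAP transgene. The tetYAP 4W library came from LaptTA; tetYAP, in which tTA drives YAP S127A, a constitutively active form of the Hippo pathway coactivator, and here was induced for 4 weeks by withdrawal of doxycycline food from mice 4 weeks old. There was 1 library per group, so no difference between groups could be tested: intervals given below are 95% intervals of counting error only, and neither animals nor libraries are replicated.

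The control library held 2989 barcodes and 9509885 UMIs and the tetYAP 4W library 1524 barcodes and 6777210 UMIs, with a median of 3117 and 4150 UMIs per barcode, and no barcode was shared. The median mitochondrial share was 28.1% and 37.7%. Xist had 3 control and 4859 tetYAP 4W UMIs, and Y-linked genes had 716 and 0, so the animals differed in sex, which cannot be told apart from the transgene. Yap1 had 155 and 128 UMIs, and since it is not stated whether 3′ reads of the transgene count towards Yap1, this does not check the labels. Cells were named from marker UMIs, with no class II gene among the markers. By that rule 26 control and 253 tetYAP 4W barcodes were macrophage-like, that is 0.870% (0.569 to 1.27) and 16.6% (14.8 to 18.6) of each library. Hepatocyte-like barcodes numbered 2789 and 689, endothelial-like 62 and 163, T or NK cell-like 7 and 106, and erythroid-like 4 and 36. B cell-like (32), monocyte-like (15) and conventional dendritic cell-like (cDC-like, 6) barcodes were found in the tetYAP 4W library only, where plasmacytoid dendritic cell-like (pDC-like) barcodes numbered 6 against 2 in the control. Clustering without the class II genes put 271 of 279 macrophage-like and 32 of 32 B cell-like barcodes in a cluster of the same name, but 0 of the 6 cDC-like ones. Hepatocyte marker RNA was present in all classes, with a median of 264 UMIs in control and 281 in tetYAP 4W macrophage-like barcodes against 370 and 380 in hepatocyte-like ones.

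All members but Ciita and Cd74 lie on mouse chromosome 17, where the class II region holds, in the GRCm38.p6 assembly, H2-DMa (chr17:34119693-34139101), H2-DMb1 (chr17:34153191-34160229), H2-Ab1 (chr17:34263227-34269418), H2-Aa (chr17:34282744-34287823) and H2-Eb1 (chr17:34305867-34316674). Ciita lies at chr16:10480014-10531064. The promoters of the set are known to share an ordered X and Y box through which Ciita is recruited. These RefSeq promoter stretches are shown because they carry both boxes, in capitals, first the X box letters CTNGNAAC and then the Y box letters TGATTGG, on the strand of the gene:
H2-Aa: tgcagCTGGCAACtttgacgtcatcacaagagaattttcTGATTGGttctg
H2-Eb1: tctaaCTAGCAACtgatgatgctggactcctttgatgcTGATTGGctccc
H2-DMb1: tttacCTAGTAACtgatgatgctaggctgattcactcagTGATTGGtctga
H2-Ob: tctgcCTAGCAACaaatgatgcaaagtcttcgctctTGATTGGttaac
The stretches lie at chr17:34287862-34287912 on the minus strand for H2-Aa and on the plus strand at chr17:34305768-34305817 for H2-Eb1, chr17:34153089-34153139 for H2-DMb1 and chr17:34238810-34238857 for H2-Ob. The X box began 84, 94, 97 and 90 bases before the start of transcription in H2-Aa, H2-Eb1, H2-DMb1 and H2-Ob, and the Y box began 34, 33, 34 and 31 bases further on. H2-Ob, a class II gene outside the 7, encodes a chain of H2-O, which restrains H2-DM. Of the 32851 promoter windows in the table, from 250 bases before to 50 after a start, 13.2% held CTNGNAAC on either strand and 7.82% TGATTGG. The ordered pair within 60 bases on the strand of the gene was in 18 windows (0.0548%), which belonged to 16 genes and included 3 of the 4 members with a window. The H2-DMa windows, at chr17:34122582-34122881 and chr17:34125268-34125567, did not hold it. They lie inside the span given above for the gene, and other starts of H2-DMa were not examined. No sequence is shown for H2-Ab1, Ciita and Cd74. The letters were chosen with these promoters in view, and a match is a description, not a site.

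The 7 genes were compared first over all barcodes, which asks how much class II RNA the deposited barcodes of each library held. Per the study's methods, these were left after down-sampling and a UMI limit, and held at most 7277 and 7493 UMIs each. How that selection shaped the 2989 control and 1524 tetYAP 4W barcodes was not tested. Class shares and folds therefore apply to these barcodes only. All 7 genes were higher in the tetYAP 4W library. H2-Aa, the alpha chain of the A molecule, had 186 control and 1967 tetYAP 4W UMIs, a log2 ratio, of counts scaled to the total of the barcodes compared (CPM), of 3.89 (3.67 to 4.12). H2-Ab1, its beta chain, had 214 and 1598, a log2 ratio of 3.39 (3.18 to 3.60). Together with H2-Eb1 the chain genes were at 42.3 and 531.0 CPM, 12.6-fold higher (11.3 to 14.0). H2-Eb1, the beta chain of the E molecule, whose alpha partner is a pseudogene in this strain, was nearly absent throughout. It had 2 and 34 UMIs (23.9-fold, 6.12 to 205) and never more than 2 in a barcode. Its counting is uncertain: whether the low level comes from the strain, the 3′ annotation or reads lost to the near copy H2-Eb2 was not tested. Cd74 (chr18:60803849-60812652), whose product also binds Mif at the cell surface, was the most counted of the 7. It had 624 and 5971 UMIs (log2 ratio 3.75, 3.63 to 3.87).

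The exchange genes and the transactivator were counted far less often. H2-DMa, the alpha chain of H2-DM, had 19 and 305 UMIs (log2 ratio 4.49, 3.83 to 5.25). H2-DMb1, a beta chain of H2-DM, had 13 and 112 (3.60, 2.76 to 4.55), a count that may be shared in part with its near copy H2-DMb2. Ciita had 8 and 74 (3.70, 2.65 to 4.96). The folds of the 6 members other than H2-Eb1 thus ran from 10.5 to 22.5, and H2-Eb1, on 2 control UMIs, gave 23.9. The median log2 ratio of the 7 genes was 3.75. Past 2-fold higher were 6 of the 6 members with more than 3 control UMIs (all but H2-Eb1), against 38.3% of the 12621 genes with at least 10 UMIs and 27.8% of the 7828 with at least 100, whose median log2 ratios were 0.60 and 0.32. With edgeR's or DESeq2's scaling the chain ratio was 3.09. Here a larger share of cells of a type and more RNA per such cell cannot be told apart, and the macrophage-like share was 16.6% against 0.870%.

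Class shares and class levels were therefore separated in part. Per barcode, the chain genes were at 0.134 UMIs in control and 2.36 in tetYAP 4W, 17.6-fold higher. Combining the tetYAP 4W level in macrophage-like, endothelial-like, hepatocyte-like and all other barcodes with the control shares of these classes left 3.33-fold. Combining the control levels with the tetYAP 4W shares gave 14.9-fold. For Cd74 the corresponding values were 18.8-, 3.54- and 13.5-fold, and for Ciita 18.1-, 2.88- and 10.9-fold. For H2-DMa 7.42-fold was left at the control shares and 9.50-fold came from the shares alone, and for H2-Eb1, on 2 control UMIs, the values were 14.8- and 13.2-fold. What is left at the control shares includes the hepatocyte-like level, since 93.3% of control barcodes were hepatocyte-like. It also includes the make-up of all other barcodes, which differed between the libraries. In tetYAP 4W these held 32 B cell-like, 15 monocyte-like and 6 cDC-like barcodes, and in the control 0 of each. The control ones were mainly the 92 unassigned barcodes. What is left is therefore not a change of level within cell classes alone.

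Where the class II RNA was counted differed between the libraries. In the control, 69.7% (64.9 to 74.1) of the 402 chain UMIs lay in macrophage-like barcodes, which held 1.14% of all UMIs. In the tetYAP 4W library, 46.4% (44.7 to 48.0) of 3599 chain UMIs did, with 16.6% of all UMIs. B cell-like barcodes there held 9.34% (8.40 to 10.3) of chain UMIs with 2.001% of all UMIs, and the 6 cDC-like barcodes 8.31% (7.43 to 9.26) with 0.426%. Each of these classes held more class II than its share of the RNA, while hepatocyte-like barcodes held 4.75% of chain UMIs with 43.1% of all UMIs. Cd74 followed the chains, with 60.6% and 46.6% of its UMIs in macrophage-like barcodes. Of the 74 Ciita UMIs in the tetYAP 4W library, 35.1% were in macrophage-like, 17.6% in cDC-like and 12.2% in B cell-like barcodes. The exchange genes were the most macrophage-weighted of the 7 in that library, with 56.1% (50.3 to 61.7) of H2-DMa and 66.1% (56.5 to 74.7) of H2-DMb1 UMIs.

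**Figure D1:**
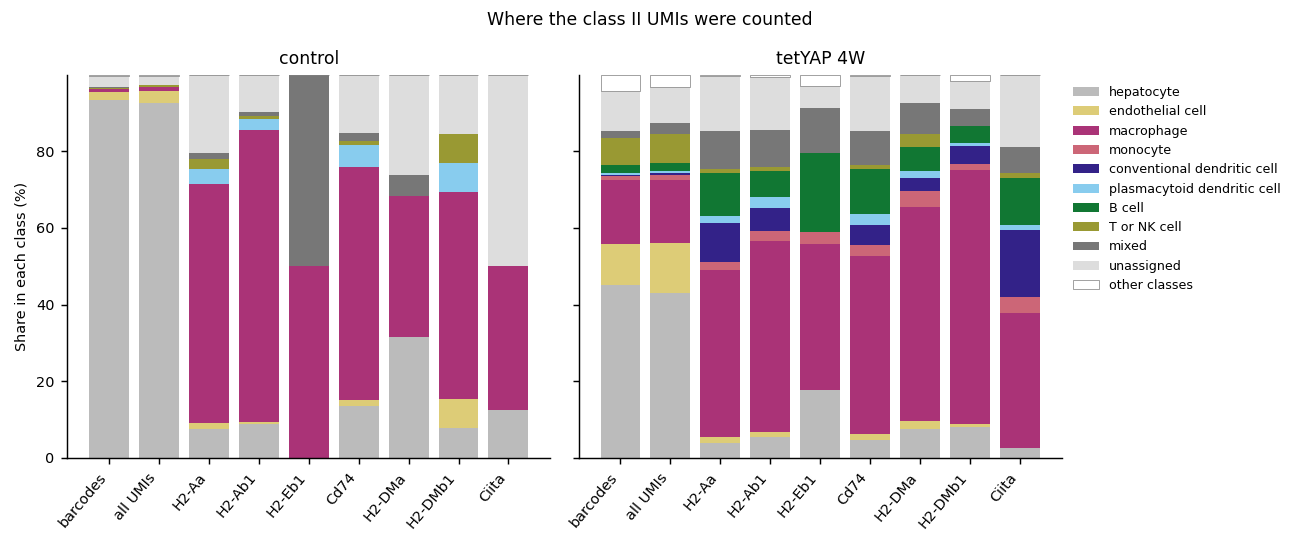
Share of barcodes, of all UMIs and of the UMIs of each member (%) by cell class, for the control library (left) and the tetYAP 4W library (right), as stacked bars. Macrophage-like barcodes are 0.870% and 16.6% of barcodes but hold 60.6% and 46.6% of Cd74 UMIs; bars for H2-Eb1 (2 UMIs) and Ciita (8 UMIs) in the control rest on few counts.

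Before levels were read, a background level was taken from hepatocyte-like and erythroid-like barcodes, which should lack these genes. In control hepatocyte-like barcodes H2-Aa was at 0.00502 UMIs per barcode (0.00274 to 0.00842), H2-Ab1 at 0.00681 and Cd74 at 0.0305. In tetYAP 4W hepatocyte-like barcodes H2-Aa was at 0.113 (0.0895 to 0.141), H2-Ab1 at 0.126 and Cd74 at 0.406 (0.360 to 0.457), and erythroid-like barcodes of that library gave 0.0556, 0.194 and 0.306. Cd74 was thus as high in tetYAP 4W erythroid-like barcodes as in hepatocyte-like ones within counting error, while macrophage markers had a median of 3 UMIs in both. All 4 members with more than 3 control UMIs over hepatocyte-like barcodes were past 2-fold higher in tetYAP 4W, against 16.6% of 10796 genes, with 126 and 485 UMIs for the 7 genes together. A single tetYAP 4W hepatocyte-like barcode carried 10 chain, 10 Cd74 and 2 Ciita UMIs. No other hepatocyte-like barcode there had more than 4 chain or 4 Cd74 UMIs, and in the control the highest values were 1 and 8. Whether the rest came from hepatocytes or from RNA free in the droplets was not tested. The erythroid-like level rests on 36 barcodes with 11 Cd74 UMIs.

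Levels by class in the tetYAP 4W library ran from this level taken as background to values far above it. Cd74 was highest in cDC-like barcodes at 52.2 UMIs per barcode (46.5 to 58.3), then pDC-like at 29.3 (25.2 to 34.0) and B cell-like at 21.8 (20.2 to 23.4). Macrophage-like at 10.99 (10.6 to 11.4) and monocyte-like at 10.9 (9.26 to 12.7) followed and did not differ beyond counting error. Of the 163 Cd74 UMIs in the 15 monocyte-like barcodes, however, 3 barcodes held 138, and the other 12 were at 2.08 (1.35 to 3.08), so that class mean rests on 3 barcodes. T or NK cell-like (0.575, 0.440 to 0.739) and endothelial-like barcodes (0.540, 0.433 to 0.665) lay close to the hepatocyte-like level. Single barcodes overlapped between neighbouring classes, with 17 to 45 Cd74 UMIs in pDC-like and 8 to 33 in B cell-like barcodes.

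The chain genes had another order. H2-Aa was at 33.7 UMIs per barcode (29.2 to 38.6) in cDC-like, 6.88 (6.00 to 7.85) in B cell-like, 6.17 (4.34 to 8.50) in pDC-like, 3.39 (3.17 to 3.63) in macrophage-like and 2.67 (1.91 to 3.63) in monocyte-like barcodes, where the same 3 barcodes held 38 of 40 H2-Aa UMIs. H2-Ab1 was at 16.2 (13.1 to 19.7) in cDC-like, 7.50 (5.47 to 10.04) in pDC-like, 3.41 (2.80 to 4.11) in B cell-like, 3.15 (2.94 to 3.38) in macrophage-like and 2.73 (1.96 to 3.71) in monocyte-like barcodes. B cell-like barcodes therefore stood above macrophage-like ones for H2-Aa and not beyond counting error for H2-Ab1. H2-Eb1 had its highest level in B cell-like barcodes, at 0.219 (0.088 to 0.451) with 7 UMIs, against 0.0514 (0.0274 to 0.0879) in macrophage-like and 0.00871 in hepatocyte-like barcodes.

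Of the exchange genes, H2-DMa was at 1.83 UMIs per barcode (0.915 to 3.28) in cDC-like, 0.676 (0.578 to 0.785) in macrophage-like and 0.594 (0.357 to 0.927) in B cell-like barcodes, and at 0.0334 in hepatocyte-like ones. H2-DMb1 was at 0.833 (0.271 to 1.95), 0.292 (0.230 to 0.367), 0.156 (0.0507 to 0.365) and 0.0131 in the same order. Ciita was at 2.17 (1.15 to 3.70) in cDC-like, 0.281 (0.129 to 0.534) in B cell-like and 0.103 (0.0671 to 0.151) in macrophage-like barcodes. The cDC-like group thus had the highest level for 6 of the 7 genes, and for H2-Eb1 it had 0 UMIs, which allows up to 0.615 per barcode. Its limit was 4 marker UMIs, not 15 as for macrophage-like and B cell-like barcodes, and was set after class II UMIs had been seen. The rank therefore describes barcodes chosen with these values known. For the exchange genes the cDC-like lead was not beyond counting error. The cDC-like interval overlapped that of B cell-like barcodes for H2-DMa and that of macrophage-like ones for H2-DMb1. H2-DMa also had 12 UMIs in 15 monocyte-like and 5 in 6 pDC-like barcodes. The group rests on 6 barcodes with a median of 5.5 cDC marker UMIs each, among them Xcr1, Clec9a and Wdfy4, while Cd209a, Clec10a, Mgl2 and Ccl22 were at 0. Markers of other cells were present too, with means per barcode of 6.67 cDC, 6.00 T or NK and 5.17 monocyte marker UMIs. In 1 of the 6 barcodes T or NK markers outnumbered the cDC ones, and in 2 the monocyte markers did. Without the former barcode the group was at 38.2 H2-Aa, 52.6 Cd74 and 2.6 Ciita UMIs per barcode; the part of these other markers in the levels was not tested. Its Ctss, the cathepsin that trims the invariant chain, had 1 UMI in 6 barcodes against 5.23 per barcode in macrophage-like ones.

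**Figure D2:**
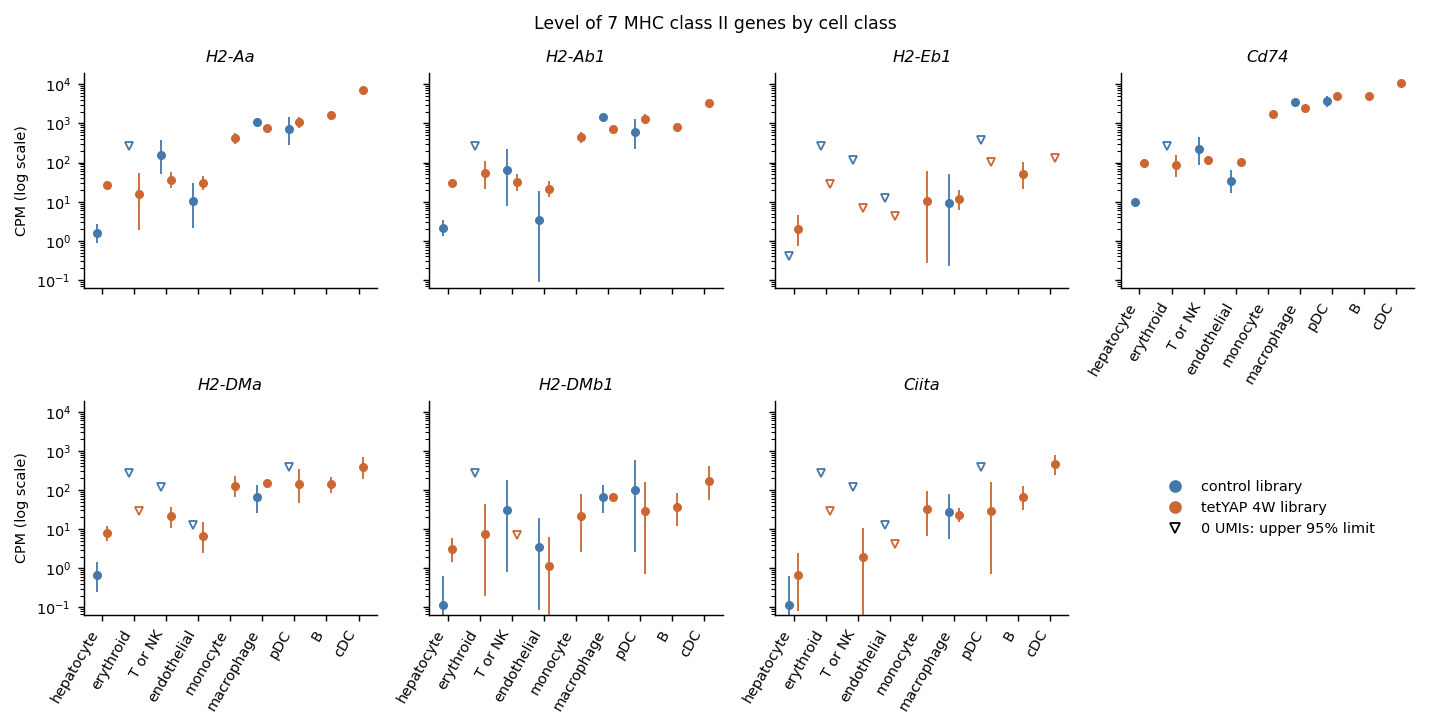
Level of each member in CPM (log scale) by cell class, for the control (blue) and the tetYAP 4W library (orange), with 95% counting intervals; open triangles are upper limits where 0 UMIs were counted. cDC-like barcodes, whose lower marker limit was set after class II UMIs had been seen, are highest for 6 of the 7 genes. For H2-DMa and H2-DMb1 this is not beyond counting error. Hepatocyte-like and erythroid-like barcodes show the level taken as background, whose source was not tested.

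Endothelial-like barcodes are of interest since the sinusoidal endothelium of the liver can present antigen. In the tetYAP 4W library 39.3% of them had a Cd74 UMI against 31.5% of hepatocyte-like barcodes, where the median depth was 5653 and 4004 UMIs. Thinned to 1000 UMIs per barcode, the shares were 6.75% and 8.42%, so the endothelial-like share was not higher at equal depth. Thinning also reduces RNA free in the droplets more in the deeper barcodes. Whether endothelial-like barcodes of this library held class II RNA above the hepatocyte-like level was therefore not tested by it. In the control, Cd74 was at 0.161 UMIs per barcode (0.0773 to 0.297) in endothelial-like and 0.0305 (0.0243 to 0.0377) in hepatocyte-like barcodes, or 34.5 and 9.66 CPM. Macrophage markers moved with it, at a mean of 0.435 and 0.127 UMIs per barcode, and their part was not tested. Between the libraries the endothelial-like log2 ratio of Cd74 was 1.55 (0.60 to 2.66), from 10 and 88 UMIs, below the 3.31 of hepatocyte-like barcodes. T or NK cell-like barcodes of the tetYAP 4W library held at most 2 chain UMIs each, and in the control 1 of 7 held all 7 chain and all 7 Cd74 UMIs of that class.

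Within macrophage-like barcodes the direction was the opposite of that over all barcodes for the chains and the invariant chain. H2-Aa had 116 UMIs in 26 control and 858 in 253 tetYAP 4W barcodes, or 4.46 (3.69 to 5.35) and 3.39 UMIs per barcode, a log2 CPM ratio of -0.49 (-0.77 to -0.19). This call did not hold with Leiden clusters (-0.23, -0.48 to 0.02), without barcodes above 30% mitochondrial UMIs (-0.13, -0.46 to 0.20) or after thinning to 1000 UMIs (0.11, -0.57 to 0.88), an interval that still holds the full value. H2-Ab1 had 163 and 798 UMIs, or 6.27 (5.34 to 7.31) and 3.15 per barcode, a log2 ratio of -1.08 (-1.33 to -0.83). Summed over the chain genes the values were 280 and 1669 UMIs, with a log2 ratio of -0.80 (-0.98 to -0.61). Cd74 had 378 and 2780 UMIs, or 14.5 (13.1 to 16.1) and 10.99 per barcode, a log2 ratio of -0.49 (-0.65 to -0.34). H2-Ab1 and Cd74 were thus lower in tetYAP 4W macrophage-like barcodes by more than counting error, while for H2-Aa this held only in part of the settings.

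H2-DMa went the other way, with 7 control and 171 tetYAP 4W UMIs and a log2 ratio of 1.24 (0.16 to 2.57). Its interval held 0 with a limit of 10 marker UMIs (0.77, -0.15 to 1.86) and among barcodes with under 3 monocyte and dendritic marker UMIs (0.85, -0.25 to 2.20). It also held 0 among those without a Timd4 UMI (0.05, -1.30 to 3.73). After thinning to 1000 UMIs the ratio was 0.22, with a lower limit of -0.16 and no upper limit. The difference thus rests on 7 control UMIs, on depth and on which barcodes are counted. H2-DMb1 had 7 and 74 UMIs, with a ratio of 0.03 (-1.09 to 1.39). Ciita had 3 and 26 (0.836-fold, 0.256 to 4.32) and H2-Eb1 1 and 13 (1.25-fold, 0.188 to 53.3), too few to give a direction. Of the 5 members above 3 control UMIs, 1 was past 2-fold higher (H2-DMa) and 1 past 2-fold lower (H2-Ab1), against 9.56% and 6.89% of the 1350 genes with at least 100 UMIs, whose median log2 ratio was 0.03. Over the 8047 genes with at least 10 UMIs the shares were 3.12% and 30.3%, where control counts under 3 were set to 3. The control side rests on 26 barcodes of 1 animal, with a median of 3764 UMIs and 38.5 macrophage marker UMIs per barcode against 4261 and 61.

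**Figure D3:**
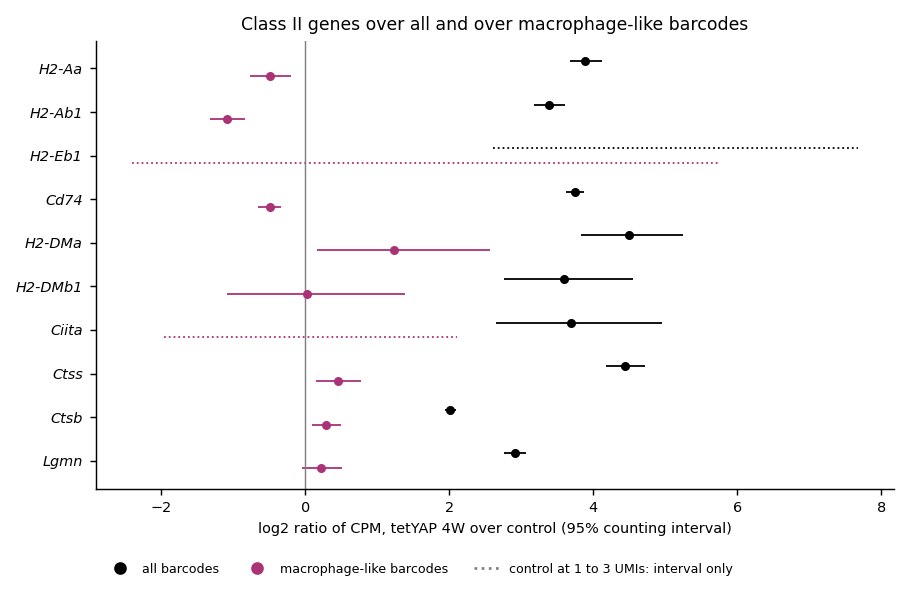
Log2 ratio of CPM, tetYAP 4W over control, with 95% counting intervals, for the 7 members and the proteases Ctss, Ctsb and Lgmn, over all barcodes (black) and over macrophage-like barcodes (purple); dotted lines are intervals only, where the control had 1 to 3 UMIs. H2-Aa, H2-Ab1 and Cd74 lie above 3 over all barcodes and below 0 over macrophage-like barcodes.

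Single macrophage-like barcodes differed more than these means. In the control the chain UMIs ran from 1 to 46 with a median of 8, and 0 of 26 barcodes had none, which allows a share of up to 13.2%. In the tetYAP 4W library they ran from 0 to 83 with a median of 3, 44 of 253 (17.4%, 12.9 to 22.6) had none, and the 25 highest held 54.0% of the UMIs. Cd74 had medians of 12 and 6. After thinning to 1000 UMIs, 23.1% of control and 48.6% of tetYAP 4W macrophage-like barcodes had no chain UMI. The ranges compare 253 with 26 barcodes, and extremes widen with number. B cell-like barcodes were more even, with 3 to 25 chain UMIs around a median of 9, and cDC-like ones ran from 17 to 78 around 47.5. Monocyte-like barcodes had a median of 0 chain UMIs and a maximum of 53.

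**Figure D4:**
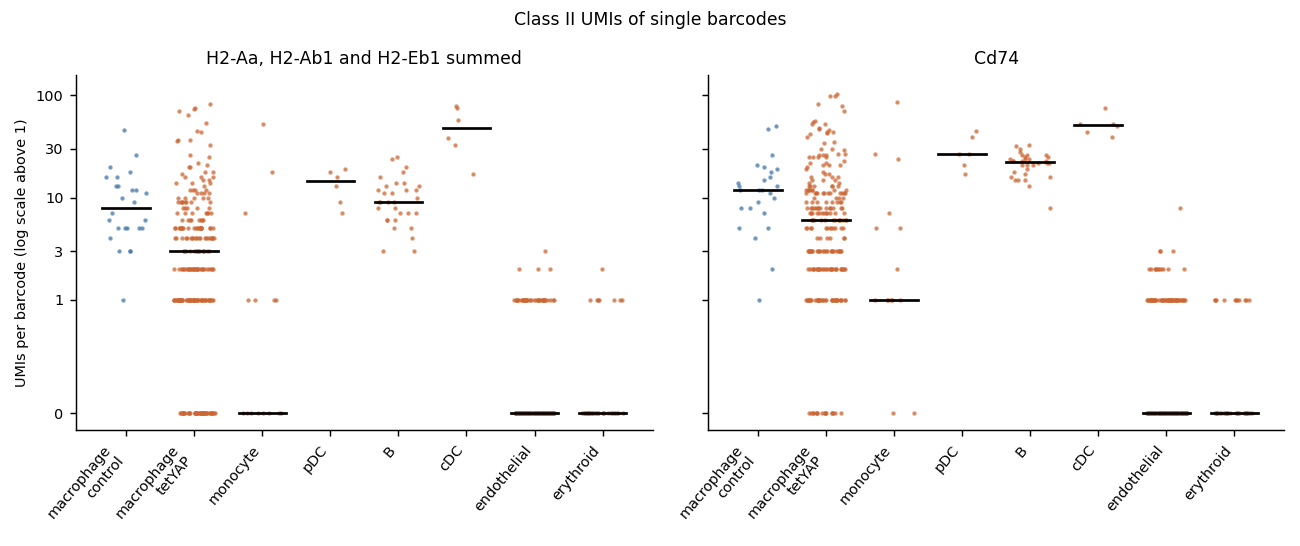
Chain UMIs (H2-Aa, H2-Ab1 and H2-Eb1 summed, left) and Cd74 UMIs (right) of single barcodes by class, in the control (blue) and the tetYAP 4W library (orange), on a scale that is logarithmic above 1; horizontal bars are medians. Macrophage-like barcodes have medians of 8 (control) and 3 chain UMIs, with tetYAP 4W values from 0 to 83.

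The lower level held in several subsets of the class. Among barcodes with under 3 monocyte and dendritic marker UMIs, the chains were at 9.36 UMIs per barcode in 25 control and 4.33 in 190 tetYAP 4W barcodes, a log2 ratio of -1.16 (-1.38 to -0.95). With at least 1 UMI of Timd4, a marker of resident Kupffer cells, the ratio was -0.84 (-1.06 to -0.63), and without one -0.55 (-0.93 to -0.15). At 15 to 29 macrophage marker UMIs it was -0.77 and at 30 to 59 it was -1.20, and for Cd74 in the same bins -0.93 and -0.90. Monocyte and dendritic markers moved with high class II in the tetYAP 4W library. The 63 macrophage-like barcodes with at least 3 such UMIs had 13.4 chain UMIs per barcode, and the single control barcode of that kind had 46. Leaving them out took barcodes rich in class II mostly from tetYAP 4W, and that subset was chosen after seeing the data. Its -1.16 is thus not independent support for the lower level.

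Barcodes with a Ciita UMI held more class II RNA. In the tetYAP 4W library 18 of 253 macrophage-like barcodes (7.11%) held a Ciita UMI, 26 in all. These had 25.9 chain UMIs per barcode (23.6 to 28.4) and a median of 13.5, against 5.12 (4.83 to 5.42) and a median of 2 in the other 235. The median depth was 6088 and 4223 UMIs, and the chains were at 4806 and 1172 CPM. In B cell-like barcodes the split gave 11.6 and 10.1, and in control macrophage-like barcodes 10.7 in 3 and 10.8 in 23. No such step was seen there, with few barcodes holding Ciita.

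The 39 tetYAP 4W macrophage-like barcodes with at least 20 Cd74 UMIs (15.4%) were set beside the other 214 as a description, since Cd74 chose them. They held 20 of 26 Ciita, 521 of 858 H2-Aa and 508 of 798 H2-Ab1 UMIs. Depth and cell content moved with the split, at a median of 5495 and 4018 UMIs, 23.3% and 31.2% mitochondrial UMIs and 137 and 51 macrophage marker UMIs, and their part was not tested. On the CPM scale H2-DMa was 2.94-fold (2.13 to 4.03) and H2-DMb1 2.96-fold (1.80 to 4.82) higher in them, below H2-Aa at 6.72-fold and H2-Ab1 at 7.61-fold. Of 1210 genes with at least 100 UMIs, 1.82% were past 2-fold higher. Ifngr1, a chain of the interferon-gamma receptor, was 2.28-fold higher (1.65 to 3.12), while the intervals of Jak1 and Irf1, which act in its signal, held 1. Kupffer cell markers were not lower, with Clec4f 1.43-fold and Timd4 1.75-fold higher. The interferon-gamma induced chemokine Cxcl9, named after its values were seen, had 47 and 20 UMIs, 10.2-fold (5.93 to 18.2), and the monocyte receptor Ccr2 had 13 and 1.

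In macrophage-like barcodes the chain genes and Cd74 varied together. Over 253 tetYAP 4W macrophage-like barcodes scaled to 10000 UMIs, which share library and counting noise, H2-Aa and H2-Ab1 correlated with r = 0.855 and rho = 0.641, and the chains with Cd74 with r = 0.879 and rho = 0.774. In 26 control ones the chains and Cd74 gave r = 0.803 and rho = 0.739. In 32 B cell-like barcodes, where levels were even, they gave 0.303 and 0.385. Chains and H2-DMa gave 0.399 and 0.395 in tetYAP 4W macrophage-like barcodes, and chains and Clec4f, the Kupffer cell lectin, 0.0445 and 0.177.

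The proportions among the members differed by class. UMIs of 3′ ends are not scaled by length, so ratios are compared between classes and not read as molar ratios of transcripts. H2-Ab1 to H2-Aa was 1.41 (1.10 to 1.80) in control and 0.9301 (0.844 to 1.03) in tetYAP 4W macrophage-like barcodes, whereas B cell-like barcodes gave 0.495 (0.390 to 0.626) and cDC-like ones 0.480 (0.373 to 0.615). Hepatocyte-like and erythroid-like barcodes of the tetYAP 4W library together had 1.18 (0.863 to 1.60), outside the B cell-like and cDC-like intervals. Cd74 to the chains was 2.07 (1.82 to 2.37) in B cell-like, 1.67 (1.57 to 1.77) in tetYAP 4W macrophage-like and 1.05 (0.891 to 1.23) in cDC-like barcodes, and 1.62 (1.34 to 1.96) in those hepatocyte-like and erythroid-like ones. H2-DMa per chain UMI was 0.0250 (0.00996 to 0.0522) in control and 0.102 (0.0870 to 0.120) in tetYAP 4W macrophage-like barcodes, 0.0565 (0.0336 to 0.0897) in B cell-like and 0.0368 (0.0182 to 0.0668) in cDC-like ones. The tetYAP 4W macrophage-like interval lay above those of control macrophage-like and cDC-like barcodes and overlapped that of hepatocyte-like and erythroid-like ones, at 0.128 (0.0790 to 0.198). H2-DMb2 to H2-DMb1, near copies whose reads may be split between them, was 5.6 (2.14 to 18.6) in B cell-like and 0.554 (0.369 to 0.822) in macrophage-like barcodes.

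**Figure D5:**
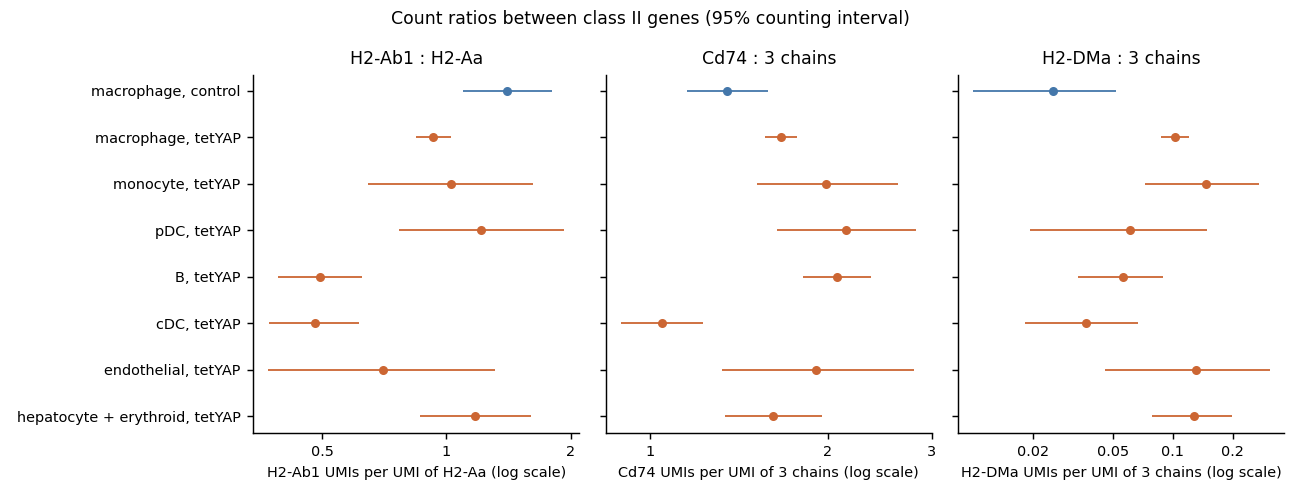
Count ratios of H2-Ab1 to H2-Aa, Cd74 to the 3 chains and H2-DMa to the 3 chains (log scale) with 95% counting intervals, by class in the control (blue) and the tetYAP 4W library (orange). B cell-like and cDC-like barcodes lie near 0.495 and 0.480 for H2-Ab1 to H2-Aa, below both macrophage-like groups.

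The rest of the pathway was followed through a list of 34 other genes with a row in the table. Counts in this paragraph are of genes with more than 3 control UMIs whose interval lay above 0. Over all barcodes such an interval held for 51.4% of the 12621 genes with at least 10 UMIs. Of the other class II and exchange genes only H2-DMb2 had enough control UMIs, with 4 and 99. H2-Oa and H2-Ob, which together form the inhibitor of H2-DM, had 1 control UMI each and 33 and 31 tetYAP 4W UMIs, of which 12 and 16 lay in B cell-like and 0 and 3 in macrophage-like barcodes. Invariant chain processing genes had an interval above 0 for 5 of 6, with a median log2 ratio of 1.72 against 0.60 over all genes, led by Ctss with 122 and 1891 UMIs (log2 ratio 4.44) and Lgmn, asparaginyl endopeptidase (2.91), while Sppl2a, which clears the last fragment of the invariant chain, was at -0.14 (-0.29 to 0.01). Promoter complex genes stood close to all genes, with 4 of 7 higher and a median of 0.65, among them Nfya (2.35) and Rfx5 (1.06), and the intervals of Rfxap, Rfxank and Nfyb held 0. Interferon-gamma pathway genes were higher for 6 of 6, with Irf1 at a log2 ratio of 2.21. Ifng had 1 and 69 UMIs, of which 66 lay in T or NK cell-like barcodes. Of the costimulation and turnover genes only Cd86, at 11 and 176 UMIs, and March1, at 7 and 72, had more than 3 control UMIs, and both were higher. Of the receptors and ligands Cd44 (4.48) and Cd4 (2.58) were higher, and Mif (-1.48) and Lag3 (-1.45) were lower. Of the 65 control Lag3 UMIs, 59 lay in hepatocyte-like and 0 in T or NK cell-like barcodes. Of the 17 in tetYAP 4W, 12 lay in pDC-like barcodes, 11 of them in 1 barcode. For Cd4, 5 of 8 control UMIs lay in hepatocyte-like barcodes. Of the 34 tetYAP 4W Cd4 UMIs, 14 lay in pDC-like and 7 in T or NK cell-like barcodes.

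Few of these genes had an interval off 0 within macrophage-like barcodes. Ctss had 93 and 1322 UMIs (log2 ratio 0.46, 0.15 to 0.78) and Ctsb 228 and 2896 (0.29, 0.10 to 0.49), so 2 of 6 processing genes were higher, with a median of 0.26. Over the 8047 genes with at least 10 UMIs in this class, 3.74% had an interval above 0 and 6.66% one below. Among genes with at least 10 UMIs, whatever their control UMIs, 0 of 4 promoter complex genes had an interval off 0. The counts were 0 of 6 for the interferon-gamma pathway and 0 of 5 for costimulation and turnover. Above the control limit used over all barcodes were only 1 of the 4, 5 of the 6 and 1 of the 5. For the promoter complex and for costimulation and turnover, control UMIs were thus too few for these counts to decide. Intervals were wide, as for Irf1 with 13 and 98 UMIs (-0.46, -1.30 to 0.50). Mif, a ligand of the Cd74 product, had 42 and 180 UMIs (-1.27, -1.77 to -0.75). Its 1.62 and 0.711 UMIs per macrophage-like barcode lay near the 1.44 and 0.605 of hepatocyte-like ones, where the ratio was -1.68, so this cannot be told apart from hepatocyte RNA in the same droplets.

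Genes most like the chains were sought over the 9 sums of class and library with at least 20 barcodes, among 7828 genes, with CPM on a log2 scale. Cd74, H2-Ab1 and H2-Aa themselves took the first ranks. Outside the class II genes, those most alike included Ly86 (r = 0.962), the phagocyte oxidase genes Ncf1 (0.955) and Cybb (0.954), Unc93b1, Spi1, Ctss, Cd86 and Bank1 (0.921). H2-DMb2, H2-DMb1 and H2-DMa ranked 25, 30 and 35. The sums share libraries and cell classes, so the values describe these classes only.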

How the data were processed

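Single-cell 3′ RNA libraries of 1 control and 1 tetYAP 4W liver were read from the deposited table of UMI counts, which the authors made with Cell Ranger on mm10 and filtered with Seurat 3; per the study's methods, cells were down-sampled and those above a UMI limit removed. The counts carried no normalization. Barcodes were assigned to a class from at least 15 UMIs of at least 3 different markers (4 UMIs for conventional dendritic cells); those passing for several classes were kept apart as mixed, and no doublet caller was run. These limits were set after the data, class II UMIs included, had been seen. The members and lists were chosen with earlier results of these data known.

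UMIs were summed per class and library and scaled to CPM. With 1 library per group, ratios were given with exact conditional binomial 95% intervals, levels with Poisson and shares with Clopper-Pearson intervals, which cover counting error only; counts under 3 were set to 3 in log2 ratios, and where the control had 1 to 3 UMIs the raw fold is given. The background is the share of genes past 2-fold among those with at least 10 UMIs or, chosen after seeing the data, at least 100. Ratio code was tested on simulated Poisson counts, which have counting error only and lack the spread among barcodes seen here. Total counts per library set the precision: 9509885 and 6777210 UMIs. Named were all members, the pathway list and the 10 genes most alike. H2-Ea-ps and Ifi30 were not analysed here, and some genes that this rule names are not reported here. Promoters and coordinates are RefSeq GRCm38.p6. Python 3.11.15, scanpy 1.11.5 (Leiden resolution 0.8), R 4.3.3, and edgeR 4.0.16 and DESeq2 1.42.0 (as scalings only) were used. Alternatives covered class limits, clusters, mitochondrial share, depth, scaling and class shares.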

Additional observations from a re-analysis of the deposited data

Results flagged for a closer look

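The chain genes and Cd74 moved in opposite directions in 2 classes. The log2 ratio of tetYAP 4W to control was -0.80 for the chains in macrophage-like and 3.97 in hepatocyte-like barcodes, and -0.49 and 3.31 for Cd74. With 1 library per group these differences were not tested. The source of the class II RNA in hepatocyte-like barcodes was not tested, and the macrophage-like share of barcodes was 0.870% and 16.6%.

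Class II RNA was also found in barcodes that the comparisons by class do not use. Unassigned barcodes had 3.19 chain UMIs per barcode in tetYAP 4W and 0.641 in control. Of the 159 in the tetYAP 4W library, 12 with at least 20 Cd74 UMIs held 665 of 858 Cd74 UMIs (77.5%). Of these 12, 6 had at least 8 B cell marker UMIs, 3 had at least 8 monocyte and dendritic marker UMIs and 3 had neither. The control had 1 such barcode, with 42 Cd74 and 37 chain UMIs and 0 macrophage marker UMIs. Mixed barcodes had 11.4 chain UMIs per barcode in the tetYAP 4W and 2 in the control library, and 11 of the 31 in the tetYAP 4W library passed for both macrophage and endothelial cell.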

How the results depend on the processing

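No paired analysis was possible because each group had 1 library, and for the same reason no replicate could be left out. The chain log2 ratio over all barcodes (3.65) was 4.30 without barcodes above 30% mitochondrial UMIs, 3.97 with equal weight per barcode, 3.09 with edgeR's TMM and 3.09 with DESeq2's size factors, 4.23 after thinning to 1000 UMIs and 1.74 at the control's class shares. In macrophage-like barcodes (-0.80) it was -0.48 with Leiden clusters, -0.47 under the mitochondrial limit, which left 17 and 126 barcodes, and, in alternatives chosen after seeing the data, -1.16 with under 3 monocyte and dendritic marker UMIs and -0.43 (-0.86 to 0.03) after thinning. There H2-Aa (-0.49) changed sign to 0.11, and the cause was not tested; its interval also held 0 with clusters (-0.23) and under the mitochondrial limit (-0.13). The H2-DMa ratio (1.24) was 0.77, its interval holding 0, at a limit of 10 marker UMIs and 0.85 with under 3 monocyte and dendritic marker UMIs. After thinning it was 0.22, with a lower limit of -0.16 and no upper limit. The macrophage-like share of tetYAP 4W chain UMIs (46.4%) was 54.3% with clusters, 39.1% with a limit of 30 marker UMIs, 49.9% after subtracting the hepatocyte-like and erythroid-like level and, chosen after seeing the data, 61.0% without mixed and unassigned barcodes. The share of tetYAP 4W macrophage-like barcodes without a chain UMI went from 17.4% to 48.6% after thinning. Of 172 alternatives, 110 left a value within its counting interval, 61 moved it and 1 reversed it. Ciita, H2-Eb1, H2-DMa and H2-DMb1 were limited by depth, with at most 7 UMIs each in control macrophage-like barcodes.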
